A study of Mus musculus with 15 samples.

Results

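The 9 complement genes described here were chosen by name from the 32372 genes of the deposited matrix: the C1q chains C1qa, C1qb and C1qc, the cascade components C3 and C4b, the receptors C3ar1 and C5ar1, and the chains Itgam and Itgb2 of complement receptor CR3. All 9 were present and passed the filter on low counts that left 14260 genes for testing. C3 was the member with the fewest counts. Without the mice of ATV:4D9 at days 1 and 7 it reached the count limit of the filter in 6 of 9 libraries, and each of the other 8 members did so in 9 of 9.

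Microglia, the resident macrophages of the brain, were profiled by single-cell RNA sequencing in 15 mice, after cells of cortex and hippocampus had been enriched with CD45 beads. All were male hTfR KI mice on a C57BL/6J background aged 3.5 months, in which a human sequence is knocked into the transferrin receptor gene, and the controls carried this allele too. Each mouse received 1 dose of 10 mg/kg. Control mice received ATV:RSV and were sampled at day 1, and treated mice received ATV:4D9 and were sampled at day 1, 7, 14 or 28. Each of these 5 groups had 3 mice, 1 from each batch. ATV:4D9 is an antibody against the microglial receptor TREM2 on an antibody transport vehicle (ATV), an Fc engineered to bind the transferrin receptor, and ATV:RSV carries a control antibody on the same vehicle. The later days had no control of the same day, so every comparison with ATV:RSV shares the same 3 control mice, and time since the dose and the day of sampling cannot be told apart.

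Complement is a cascade of proteins that tags cells, debris and synapses for removal. C1q, built from the A, B and C chains, recognizes the target and starts the classical pathway. C4 and C3 are then cleaved and deposited on the target. The fragments C3a, released from C3, and C5a, released from C5, signal through the receptors C3aR1 and C5aR1. Microglia are the main source of C1q in the brain, and they engulf C3-tagged material through CR3, the integrin pair of CD11b (Itgam) and CD18 (Itgb2).

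Unique molecular identifiers (UMIs), each standing for 1 captured transcript, were counted in 102043 cells and summed per mouse. The sums ran from 32341960 to 70307384 UMIs. Cells of ATV:4D9 mice at day 1 were deeper (median of 8513 ± 424 UMIs per cell, SD, n = 3) than those of control mice (5317 ± 396), and their median share of mitochondrial UMIs was higher in each mouse (3.96% to 4.50% against 3.11% to 3.38%). The 8 microglial markers (P2ry12, Tmem119, Cx3cr1 and others) were present in every group, and their summed level was 13127 to 14555 UMIs per 1000000 UMIs of a library (CPM) at day 1 against 18885 to 20243 CPM in the controls. Aif1 was higher in every day 1 mouse than in every control mouse (1278 to 1356 against 948 to 1053 CPM), while P2ry12, Tmem119 and Cx3cr1 were lower without overlap. In the deposited clustering, 87.3% to 93.5% of the cells of day 1 mice were in cluster 2, which held 1.12% to 3.23% of the cells of each other mouse. Barcode sequences were shared between libraries in 2579 of the 102043 cells. The part of depth, mitochondrial share and cluster in the day 1 results was not tested.

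At day 1, all 9 members differed from the control mice. Of these, 8 were higher and Itgam was lower, at a time when 69.2% of the 14260 genes passed the same limma-voom test (34.7% higher and 34.6% lower), so the number of members called is read against that share. The split depends on the scaling of the libraries: with scaling by the library size alone 4 members were higher and 3 lower (25.9% and 48.8% of all genes), and with scaling by the number of cells 8 were higher and 0 lower (49.3% and 13.4%; Itgam was not called, adjusted p = 0.0760). The median log2 fold change of the members was 0.30 on the main (TMM) scale, beside -0.05 over all genes tested. At day 7, 2 members (C3 and C4b) were called higher, where 3.98% of all genes were called and 2.99% were higher. At day 14 no member was called in a background of 0.4%, with 1 member (C5ar1) at an unadjusted limma-voom p under 0.05 and 0 calls by edgeR or DESeq2. At day 28 no member was called, as was no gene (0%), with 0 members at an unadjusted p under 0.05 and 0 calls by edgeR or DESeq2. Across the 5 groups, the moderated F test called 7 members in a background of 66.5%. The exceptions were C1qc (adjusted p = 0.0583) and Itgb2 (adjusted p = 0.139). With batch as a block the F test called all 9, in a background of 70.9%, and over 25 alternatives it called 5 to 9.

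**Figure D1:**
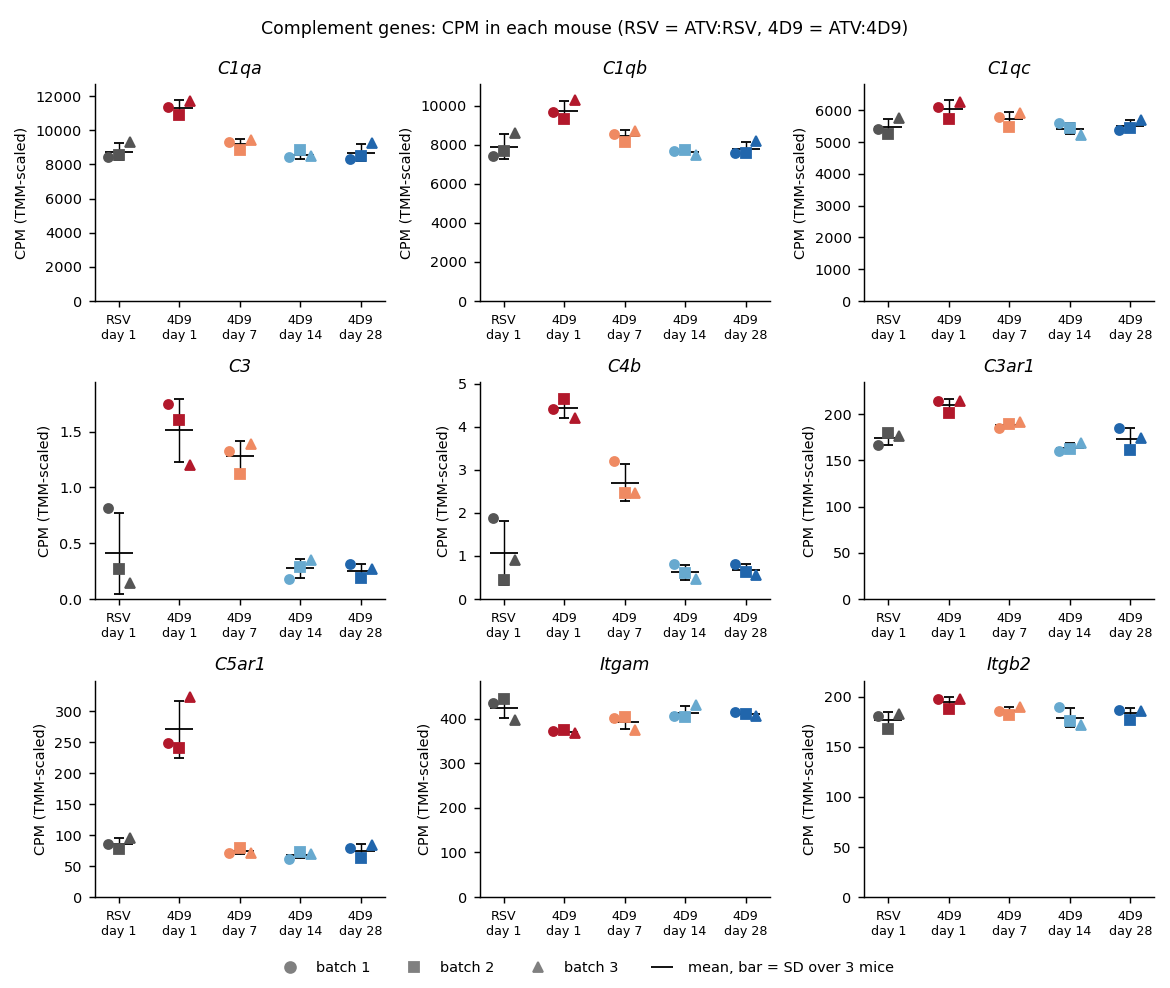
Level of the 9 genes in each mouse (CPM scaled by TMM, linear axes from 0) for ATV:RSV day 1 and ATV:4D9 days 1, 7, 14 and 28, with symbols for the 3 batches and lines for the mean and SD of 3 mice. C5ar1 at day 1 (240 to 323 CPM) stands above every other mouse, while C3 and C4b stay above the 3 control mice at day 7.

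The C1q chains are encoded side by side on the minus strand of chromosome 4 (C1qa chr4:136895917-136898803, C1qc chr4:136889804-136893065 and C1qb chr4:136880129-136886187 in mm10). In the control mice C1qa, the A chain, was at 8416, 8534 and 9300 CPM, and at day 1 of ATV:4D9 at 11389, 10885 and 11714 CPM. Every day 1 mouse was above every control mouse. The groups did not overlap, in either direction, for 71.5% of all genes tested. C1qa rose by a log2 fold change of 0.37 (SE 0.0506, adjusted p = 7.21e-06). C1qb, the B chain, was at 7437, 7681 and 8624 CPM in the controls and at 9672, 9314 and 10278 CPM at day 1, again without overlap, a log2 fold change of 0.30 (SE 0.0559, adjusted p = 1.63e-04). The C chain had the smallest fold change of the 3. C1qc was at 5402, 5248 and 5759 CPM in the controls and at 6109, 5719 and 6259 CPM at day 1, where the lowest treated mouse lay below the highest control mouse, with a log2 fold change of 0.14 (SE 0.0491, adjusted p = 0.0188). That call was lost in a fit of the 6 mice alone (adjusted p = 0.0592) and without control replicate 1 (adjusted p = 0.0530), control replicate 2 (0.0870) or day 1 replicate 3 (0.0639).

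These C1q values depend on the scaling. TMM, the scaling used here, sets the libraries by the bulk of the genes, and with scaling by the library size alone the median of all genes at day 1 moved from -0.05 to -0.29. On that scale C1qa was still called higher (0.13, adjusted p = 0.0198), C1qb was not called (0.06, adjusted p = 0.280) and C1qc was called lower (-0.10, adjusted p = 0.0477). As a share of all UMIs of a mouse, the 3 chains together made up 2.24% to 2.50% in the controls and 2.34% to 2.48% at day 1, ranges that overlap. In a sum over the cells of a mouse, a change in the number of cells of a kind and a change in RNA per cell cannot be told apart. Per cell, the counts were higher in the deeper cells of day 1: C1qa went from 56.9 ± 4.27 to 94.6 ± 6.26 UMIs per cell and C1qc from 35.6 ± 3.13 to 50.4 ± 3.74 (SD, n = 3).

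The ratios between the chains differed from those of the controls at day 1. The ratio of C1qc to C1qb UMIs was 0.692 ± 0.0304 in the controls (range 0.668 to 0.726) and 0.618 ± 0.0119 at day 1 (range 0.609 to 0.632), so that every day 1 mouse was below every control mouse, and it was 0.676, 0.709 and 0.707 at days 7, 14 and 28. The ratio of C1qa to C1qb was 1.11 ± 0.0268 in the controls and 1.16 ± 0.0198 at day 1, also without overlap. It was 1.09, 1.12 and 1.11 at days 7, 14 and 28. The range of day 14 (1.095 to 1.143) overlapped that of day 1 (1.140 to 1.178). How often the ratios of other gene pairs differ without overlap at day 1 was not counted. A ratio within a library does not depend on how the libraries were scaled. Over the 15 mice the log2 levels of C1qa and C1qb correlated at a Pearson r of 0.974, and at 0.952 over the 12 mice other than day 1. Each pair of values comes from 1 library and shares its depth.

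By day 7 the C1q chains were back near the controls. C1qa was at 9291, 8871 and 9442 CPM at day 7, inside the range of the controls at its lower end and above it at its upper end, and the log2 fold change of 0.07 (95% confidence interval -0.04 to 0.19) did not pass the test (adjusted p = 0.516). The values at day 7 were 0.10 for C1qb and 0.07 for C1qc, neither called (adjusted p = 0.407 and 0.551). At days 14 and 28 the log2 fold changes of the 3 chains lay between -0.05 and 0.01, and the mice overlapped the controls in each case. The C1q transcripts were found in nearly every cell: after each cell was thinned at random to 3385 UMIs, a mean of at least 99.9% of cells had a UMI of each chain in every group.

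The genes of C1q lie side by side and were all called higher at day 1 on the TMM scale (C1qc was called lower with scaling by the library size alone). The sequence before the starts of C1qb and C1qc is shown beside that of C3, C5ar1 and Itgam. The promoter set used had no sequence for C1qa. The 250 bases before the RefSeq start (GRCm38.p6) are given for these 5 members, 5′ to 3′ on the strand of the gene. RefSeq promoters were read for 6 of the 9 members (the 5 printed here and C3ar1). Capitals mark matches on either strand to GAGGAA, a core letter string of PU.1, the transcription factor of the myeloid lineage (on the opposite strand it reads TTCCTC), or to TTGCNNAA, a core string of C/EBP factors. The strings do not overlap in these windows. Positions are counted from the RefSeq start, which for C1qc and C5ar1 lies inside the gene as the GENCODE annotation of mm10 places it, so that a stretch of those windows falls within the coordinates given for these genes.
C1qb, chr4:136886201-136886450, minus strand: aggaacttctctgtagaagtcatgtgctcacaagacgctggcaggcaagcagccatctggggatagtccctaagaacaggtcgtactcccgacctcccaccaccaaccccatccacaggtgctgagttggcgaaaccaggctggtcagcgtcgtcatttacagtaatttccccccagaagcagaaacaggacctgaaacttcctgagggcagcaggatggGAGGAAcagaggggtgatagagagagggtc
C1qc, chr4:136892915-136893164, minus strand: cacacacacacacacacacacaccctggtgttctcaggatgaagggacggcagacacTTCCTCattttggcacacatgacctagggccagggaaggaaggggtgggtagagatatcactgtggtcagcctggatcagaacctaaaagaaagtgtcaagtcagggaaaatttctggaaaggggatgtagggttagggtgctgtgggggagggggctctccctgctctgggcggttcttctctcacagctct
C3, chr17:57228137-57228386, minus strand: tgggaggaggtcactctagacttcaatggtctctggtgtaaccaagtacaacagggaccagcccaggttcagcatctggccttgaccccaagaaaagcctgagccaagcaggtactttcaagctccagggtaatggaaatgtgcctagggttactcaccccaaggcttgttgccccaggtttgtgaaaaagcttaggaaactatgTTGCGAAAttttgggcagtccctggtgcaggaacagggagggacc
C5ar1, chr7:16259339-16259588, minus strand: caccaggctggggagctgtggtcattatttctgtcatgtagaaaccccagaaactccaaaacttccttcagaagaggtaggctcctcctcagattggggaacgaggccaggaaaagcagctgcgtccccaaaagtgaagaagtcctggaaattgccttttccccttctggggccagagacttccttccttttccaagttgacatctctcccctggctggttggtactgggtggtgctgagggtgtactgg
Itgam, chr7:128062390-128062639, plus strand: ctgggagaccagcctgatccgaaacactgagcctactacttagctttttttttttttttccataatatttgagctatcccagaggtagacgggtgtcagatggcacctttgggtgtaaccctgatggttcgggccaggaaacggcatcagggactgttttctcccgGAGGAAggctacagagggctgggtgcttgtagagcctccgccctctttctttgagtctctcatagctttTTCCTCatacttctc

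GAGGAA was found in 3 of the 6 member promoters, and 23.3% of the 32851 promoters of that length hold it. It lay 30 to 25 bases before the start of C1qb, 193 to 188 bases before that of C1qc on the opposite strand, and in Itgam at 84 to 79 bases and, on the opposite strand, at 15 to 10 bases. TTGCNNAA was found in C3 only, 45 to 38 bases before the start, as TTGCGAAA, and in 9.56% of all promoters. The core string of the interferon response element was in none of the 6 and in 2.98% of all promoters. These are matches of letters in a window, and C5ar1, the member called with the smallest p at day 1, had none of the 3 strings there.

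**Figure D2:**
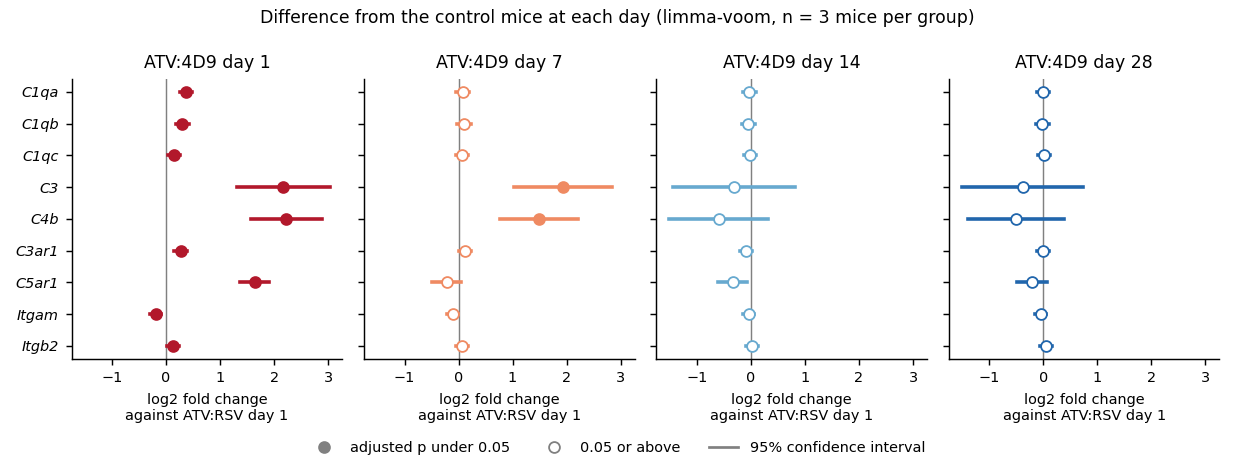
Log2 fold change (point) and 95% confidence interval (bar) of each gene against the 3 ATV:RSV mice, with 1 panel per day of ATV:4D9; filled points passed an adjusted p under 0.05 in limma-voom. All 9 points are filled at day 1, C3 and C4b at day 7, and none at days 14 and 28.

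C3 and C4b were the 2 members called higher at both day 1 and day 7. C3 (chr17:57203970-57228136, minus strand) is the component on which the complement pathways converge. It was at 0.818, 0.265 and 0.143 CPM in the control mice, 1.74, 1.60 and 1.20 CPM at day 1 and 1.33, 1.12 and 1.39 CPM at day 7. The treated mice of both days lay above every control mouse, and control replicate 1 was the highest of the controls. The log2 fold change was 2.17 at day 1 (SE 0.387, adjusted p = 1.20e-04) and 1.93 at day 7 (SE 0.408, adjusted p = 0.0118). These levels rest on few molecules, since the 3 control mice gave 40, 11 and 6 UMIs of C3, the day 1 mice 111, 98 and 56, and the day 7 mice 47, 36 and 70. Within batches the difference was 1.09, 2.59 and 3.06 on the log2 scale at day 1 and 0.70, 2.08 and 3.28 at day 7.

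C4b (chr17:34728380-34743882, minus strand) encodes the C4 protein, cleaved downstream of C1q. It was at 1.88, 0.434 and 0.907 CPM in the controls, 4.41, 4.66 and 4.21 CPM at day 1 and 3.20, 2.46 and 2.46 CPM at day 7. The treated mice did not overlap the controls on either day, and the log2 fold change was 2.23 at day 1 (SE 0.298, adjusted p = 6.15e-06) and 1.49 at day 7 (SE 0.325, adjusted p = 0.0145). The near-identical gene C4a lies on the same strand at chr17:34809092-34823464, and how reads were divided between the genes is not known, so the value of C4b is uncertain in that respect.

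The calls of C3 and C4b at day 7 depend on single libraries. Without control replicate 2, C3 was at 1.80 (adjusted p = 0.0755) and C4b at 0.99 (adjusted p = 0.0679). Without control replicate 3, the values were 1.39 (0.0660) and 1.47 (0.0574), and without day 7 replicate 3, C3 was at 1.86 (0.0518). In a fit of the 6 mice of both groups alone both calls were lost (adjusted p = 0.0558 for C3 and 0.0787 for C4b). Without control replicate 1, the highest of the controls, C3 was at 2.65 (0.000952) at day 7. At day 1 both were called in every one of the 26 alternative fits. With 1 mouse left out, the day 1 values ran from 1.63 (without control replicate 3) to 2.89 (without control replicate 1) for C3 and from 1.72 (without control replicate 2) to 2.79 (without control replicate 1) for C4b.

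After day 7 both levels dropped. C3 was at 0.182, 0.291 and 0.352 CPM at day 14 and at 0.311, 0.189 and 0.265 CPM at day 28, and C4b at 0.809, 0.609 and 0.462 CPM and at 0.817, 0.629 and 0.550 CPM. Day 14 was below day 7 in every mouse, with a log2 difference of -2.25 for C3 (SE 0.426, adjusted p = 0.0177) and -2.09 for C4b (SE 0.363, adjusted p = 0.0112), when 0.912% of all genes were called between these days and 0.856% were lower. These were the 2 members called between days 7 and 14, and 5 members (with C1qa, C1qb and C3ar1) did not overlap there, as was so for 13.6% of all genes. The call of C3 was lost without day 7 replicate 1 (adjusted p = 0.0564) or 3 (0.0767) and without day 14 replicate 1 (0.118), 2 (0.0995) or 3 (0.0609), and that of C4b without day 14 replicate 2 (0.0777) or 3 (0.0667). With 1 mouse left out, the values ran from -2.46 to -1.96 for C3 and from -2.31 to -1.89 for C4b. Against the controls the values at day 14 were -0.31 for C3 (95% interval -1.44 to 0.81) and -0.60 for C4b (-1.52 to 0.32), intervals that still hold a fall by a log2 unit for each gene. Between days 1 and 7, C4b fell by 0.73 on the log2 scale (SE 0.221, adjusted p = 0.00828), while C3 moved by -0.23 (SE 0.276, adjusted p = 0.472) with overlapping mice.

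Few cells carried these transcripts. At day 1, 265 UMIs of C3 lay in 248 of 20459 cells, with at most 3 in a cell, and 763 UMIs of C4b lay in 609 cells. In the controls 57 UMIs of C3 lay in 38 of 20301 cells, and 14 of them in a single cell of replicate 1 that carried monocyte markers. At day 7 there were 153 UMIs of C3 in 135 cells and 10 in the richest cell. In day 7 replicate 3, 10 of the 70 UMIs of C3 (14.3%) lay in cells with markers of another type. Of the 248 cells with C3 at day 1, 21 (8.47%) also held a C4b UMI, against 2.98% of all cells of that group. At day 7 it was 3 of 135 cells (2.22%) against 1.36%, and in the controls 3 of 38 (7.89%) against 0.586%. The part of cell depth in these differences was not tested.

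After thinning to 3385 UMIs, 0.0837% ± 0.0288 of control cells had a UMI of C3 (SD, n = 3), 0.392% ± 0.110 at day 1 and 0.334% ± 0.0424 at day 7. Without thinning the means were 0.184%, 1.19% and 0.693%. Snap25, a neuronal transcript that microglia should lack, was in 1.64% ± 0.181 of thinned control cells and in 0.920% ± 0.231 at day 1 and 1.06% ± 0.103 at day 7. Cldn5, an endothelial transcript, was in 0.490% ± 0.358, 0.448% ± 0.348 and 0.217% ± 0.151, and Cd3e, a T cell transcript, in 0%, 0.0144% and 0.00471% on average. The share of C3 was below that of Snap25 in these 3 groups, below the mean of Cldn5 in the controls and at day 1 and above it at day 7, and above Cd3e in all 3. Shares of this size are within what transcripts of other cell types gave, so which cells made the C3 transcripts was not resolved. The share of C4b was 0.238% ± 0.217 in the controls, 1.19% ± 0.0616 at day 1 and 0.775% ± 0.162 at day 7, above the mean of Snap25 at day 1 only. Thinning left out 12.7%, 4.78% and 13.1% of the cells of these 3 groups.

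**Figure D3:**
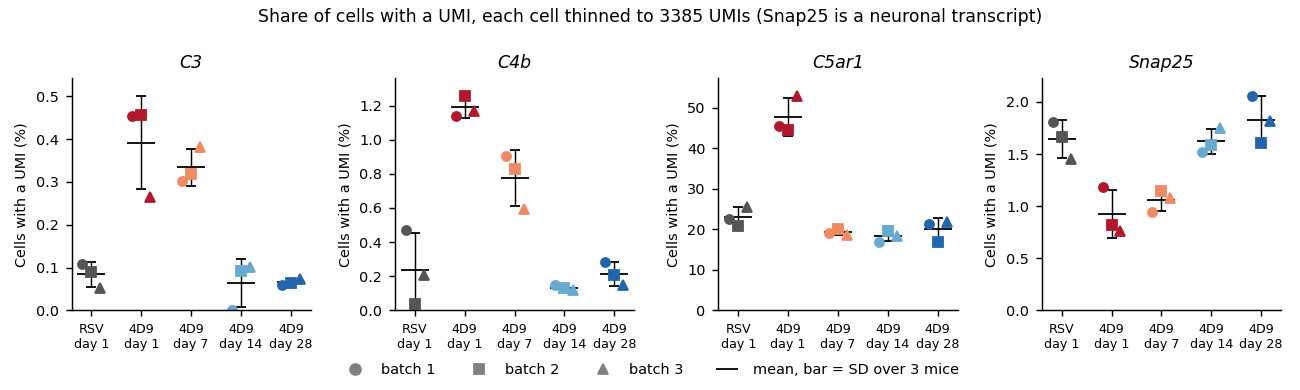
Percent of cells with at least 1 UMI of C3, C4b, C5ar1 and the neuronal transcript Snap25 in each mouse after thinning to 3385 UMIs per cell (linear axes from 0, a different scale in each panel), with the mean and SD of 3 mice. C3 stays under 0.5% in every mouse and below Snap25, while C5ar1 moves from 22.9% in the controls to 47.7% at day 1.

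Markers of other cell types were read beside C3 and C4b. At least 3 markers of another type were detected in 1619 cells, of which 814 carried markers of oligodendrocytes, 452 of border-associated macrophages and 297 of astrocytes. The 814 cells held C1qa at 89.0 and Itgam at 4.32 UMIs per 10000, against 93.5 and 3.97 in the cells with fewer than 3 such markers. Their median depth was 11640.5 against 5816 UMIs. Whether they were cells of another type or microglia that also held its RNA was not tested. Pooled over all groups, C4b was at 0.116 UMIs per 10000 in the 452 cells with border macrophage markers. It was at 0.0191 in the 100424 cells with fewer than 3 markers of any other type. Mice of day 1 gave 209 of the 452 cells and 20012 of the 100424, so these rates also carry the mix of groups. Detection of 3 markers depends on depth, and the cells with border macrophage markers had a median of 12373.5 UMIs. The part of the deeper cells of day 1 in the number of such cells was not tested. There were 66 cells with border macrophage markers in the controls, 209 at day 1 and 58 at day 7, and the summed level of the 7 markers was 17.2 to 20.6 CPM, 18.0 to 26.0 CPM and 14.8 to 15.6 CPM, none of them at 0. Within that sum Mrc1 was lower at day 1 (4.49 to 6.76 against 7.18 to 9.92 CPM in the controls), while Pf4 (8.25 to 11.8 against 4.39 to 7.15 CPM), Ms4a7 (1.92 to 2.33 against 0.530 to 1.27 CPM) and Cbr2 (1.21 to 1.78 against 0.858 to 1.03 CPM) were higher, each without overlap, and the other 3 overlapped. With all 1619 cells left out, the log2 fold change at day 7 was 2.04 for C3 (adjusted p = 0.00250) and 1.52 for C4b (adjusted p = 0.0172), and at day 1 it was 2.35 for C3 (adjusted p = 1.17e-05) and 2.22 for C4b (adjusted p = 1.09e-05). The summed level of 5 astrocyte markers was 221 to 271 CPM in the controls, 116 to 121 CPM at day 1 and 189 to 247 CPM at day 7, none of them at 0. Most of that sum was Slc1a3 (means of 236, 110 and 209 CPM), and the means in the controls and at day 1 were 5.36 and 3.58 CPM for Slc1a2, 4.22 and 3.00 CPM for Aldoc, 0.613 and 0.793 CPM for Gfap and 0.256 and 0.262 CPM for Aqp4. That of 5 monocyte markers was 4.51 to 11.5 CPM, 13.9 to 18.0 CPM and 5.42 to 11.9 CPM, with none at 0 either. Most of the higher sum at day 1 was Plac8 (means of 1.34 CPM in the controls and 12.9 CPM at day 1), with Vcan at 0.238 and 0.477 CPM, Ly6c2 at 0.168 and 0.214 CPM, Ccr2 at 5.26 and 1.72 CPM and Chil3 at 0.161 and 0.0813 CPM. The 5 neutrophil markers summed to 116 CPM in day 7 replicate 3 and to at most 9.03 CPM in any control mouse. The part of cells with fewer markers of another type was not tested.

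Of the receptors C3ar1 and C5ar1, C5ar1 (chr7:16246743-16259540, minus strand), which binds C5a, had the larger change at day 1. It was at 85.8, 77.1 and 96.1 CPM in the control mice and at 248, 240 and 323 CPM at day 1, and replicate 3 was the highest in both groups. C5ar1 rose by a log2 fold change of 1.64 (SE 0.119, 95% confidence interval 1.37 to 1.90, adjusted p = 5.21e-09), a fold of 3.12. The differences within the 3 batches were 1.53, 1.64 and 1.75. The rise was of the same size without the cells that had markers of another type (1.64, adjusted p = 4.99e-09), and over all 26 alternative fits it ranged from 1.40 to 2.00.

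The rise of C5ar1 was spread over many cells. The share of cells with a C5ar1 UMI after thinning was 22.9% ± 2.46 in the controls and 47.7% ± 4.62 at day 1 (33.8% and 70.8% without thinning), and no cell of day 1 held more than 25 of the 45617 UMIs. Per cell the mean went from 0.563 ± 0.0811 to 2.25 ± 0.261 UMIs. By day 7, C5ar1 was at 71.6, 78.5 and 71.5 CPM, below day 1 by 1.86 on the log2 scale (SE 0.120, adjusted p = 1.58e-09), when 66.9% of all genes differed between these days and 33.9% were lower. At day 14 it was at 62.2, 72.2 and 70.2 CPM, below every control mouse. C5ar1 was the only one of the 9 members whose mice did not overlap the controls at day 14, as was so for 10.4% of all genes. That difference of -0.34 (SE 0.123, unadjusted p = 0.0146) did not pass the correction in limma-voom (adjusted p = 0.621). The mice of day 28 (78.8, 62.3 and 83.9 CPM) overlapped the controls, and no member stood apart from the controls at that day, where 8.93% of all genes did.

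C3ar1 (chr6:122847138-122856161, minus strand), the receptor of C3a, changed less. It was at 166, 179 and 177 CPM in the controls and at 214, 201 and 214 CPM at day 1, without overlap, and rose by a log2 fold change of 0.27 (SE 0.0509, adjusted p = 2.10e-04). With scaling by the library size alone this was 0.03 and not called (adjusted p = 0.639). At day 7 it was at 185, 190 and 191 CPM, still above every control mouse, but the difference of 0.12 (SE 0.0513) did not pass the test (adjusted p = 0.266). With C3 and C4b, C3ar1 was one of 3 members whose mice did not overlap the controls at day 7, as was so for 21.2% of all genes. C3ar1 fell by 0.15 on the log2 scale from day 1 to day 7 (adjusted p = 0.0158), a call that was lost with scaling by the library size alone (-0.0059, adjusted p = 0.927). From day 7 to day 14 it moved by -0.20, which was not called in limma-voom (adjusted p = 0.0963) and was called in DESeq2 (adjusted p = 0.0154). The thinned share of cells with a UMI was 42.8% ± 1.76 in the controls and 45.0% ± 0.941 at day 1 (57.4% and 72.8% without thinning).

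The chains of CR3 moved apart at day 1. Itgam (chr7:128062640-128118491, plus strand), which encodes CD11b, was at 434, 443 and 397 CPM in the controls and at 371, 374 and 368 CPM at day 1. All 3 treated mice were below every control mouse, and Itgam fell by 0.19 on the log2 scale (SE 0.0471, adjusted p = 0.00174). Itgb2 (chr10:77530252-77565708, plus strand), which encodes CD18, the shared beta chain of the leukocyte integrins, was at 181, 168 and 183 CPM in the controls and at 197, 188 and 198 CPM at day 1. It rose by a log2 fold change of 0.13 (SE 0.0487, adjusted p = 0.0234). The call of Itgb2 was lost without control replicate 2 (adjusted p = 0.122), day 1 replicate 1 (0.0503) or day 1 replicate 3 (0.0570) and in a fit of the 6 mice alone (0.0607), and with scaling by the library size alone it turned to -0.11 (adjusted p = 0.0367).

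For Itgam the sign depends on what the counts are scaled to. Cells of day 1 mice were deeper, and per cell Itgam was at 2.76 ± 0.236 UMIs in the controls and 3.10 ± 0.228 at day 1. Scaled by the number of cells, the log2 fold change was 0.17 (adjusted p = 0.0760), with the median of all genes at 0.32 on that scale. After thinning to equal depth, 75.2% ± 2.58 of control cells and 64.4% ± 1.38 of day 1 cells had an Itgam UMI, with no overlap between the mice, and without thinning 85.9% and 87.3%. Within batches the difference on the CPM scale was -0.22, -0.25 and -0.11.

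At day 7 Itgam was at 402, 403 and 374 CPM, a difference of -0.11 from the controls (SE 0.0473) that was not called (adjusted p = 0.246), and lower than the control of its batch in 3 of 3 mice. With scaling by the library size alone it was called (-0.21, adjusted p = 0.0217). From day 1 to day 7 the mice of Itgam did not overlap, at a difference of 0.08 that was not called (adjusted p = 0.137). In all, 6 members did not overlap between those days, as did 70% of all genes, and 5 were called, all lower (C1qa, C1qb, C4b, C3ar1 and C5ar1), beside 66.9% of all genes. With scaling by the library size alone 1 member (Itgam) was higher and 3 lower (41.4% and 27.8% of all genes). With scaling by the number of cells 0 were higher and 8, Itgam among them, lower (8.93% and 54.3%). At days 14 and 28, Itgam was at 403 to 429 CPM and 405 to 414 CPM, inside the range of the controls. Itgb2 stayed between 172 and 190 CPM at days 7, 14 and 28.

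The order of the groups by mean level showed which neighbors could not be told apart. For C1qa and C1qb, ATV:4D9 day 1 stood apart from all other mice, and the other 4 groups overlapped with their neighbors in the order day 14, day 28, control and day 7. For C4b and C3ar1 the order was day 14, day 28, control, day 7 and day 1, with days 7 and 1 apart from each other and from the controls. C3 had days 7 and 1 apart from the controls but overlapping with each other. For Itgam the order was day 1, day 7, day 28, day 14 and control, with day 7 apart from both of its neighbors. For C5ar1 it was day 14, day 7, day 28, control and day 1, with only day 1 apart from its neighbor. Neighboring groups of C1qc and Itgb2 overlapped throughout.

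Within the deposited clusters the members could be compared between groups, although the clusters were made from these cells and genes, so the values are given with no test. Cluster levels are scaled by the UMIs alone, without TMM factors. The share of all genes whose mice do not overlap within a cluster was not counted. Most cells were in clusters 0 and 1 in the controls and in cluster 2 at day 1, where clusters 0 and 1 held 945 and 1098 of 20459 cells. In the controls cluster 2 held 339 of 20301 cells, 76 to 165 per mouse, against 18416 at day 1. Each comparison within a cluster thus sets most cells of 1 group against few of the other, and whether these cells are alike was not tested. C5ar1 was higher at day 1 in each cluster: 168 against 98.4 CPM in cluster 0, 126 against 71.5 CPM in cluster 1 and 246 against 148 CPM in cluster 2 (means of 3 mice), with 3 of 3 treated mice above every control mouse in each. C1qa was likewise higher in each cluster, at 10347 against 8840 CPM, 12584 against 10262 CPM and 10082 against 8365 CPM, again in 3 of 3 mice.

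Itgam differed from cluster to cluster. In cluster 1 its mean was 532 CPM at day 1 and 466 CPM in the controls, and 3 of 3 treated mice were above every control mouse. In cluster 0 the means were 482 and 445 CPM, with 1 of 3 mice above. In cluster 2 they were 323 and 346 CPM, with 2 of 3 mice below. Itgam was thus lower in the day 1 sums (TMM scale) and higher in cluster 1 (scaled by the UMIs alone). Cluster 2, which held most day 1 cells, had the lowest mean Itgam of the 3 clusters in every group (310 to 346 CPM). The part of the mix of clusters in the lower sum was not tested. At day 7, where clusters 0 and 1 held most cells as in the controls, Itgam was below every control mouse in 3 of 3 mice in both (389 against 445 CPM and 396 against 466 CPM).

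**Figure D4:**
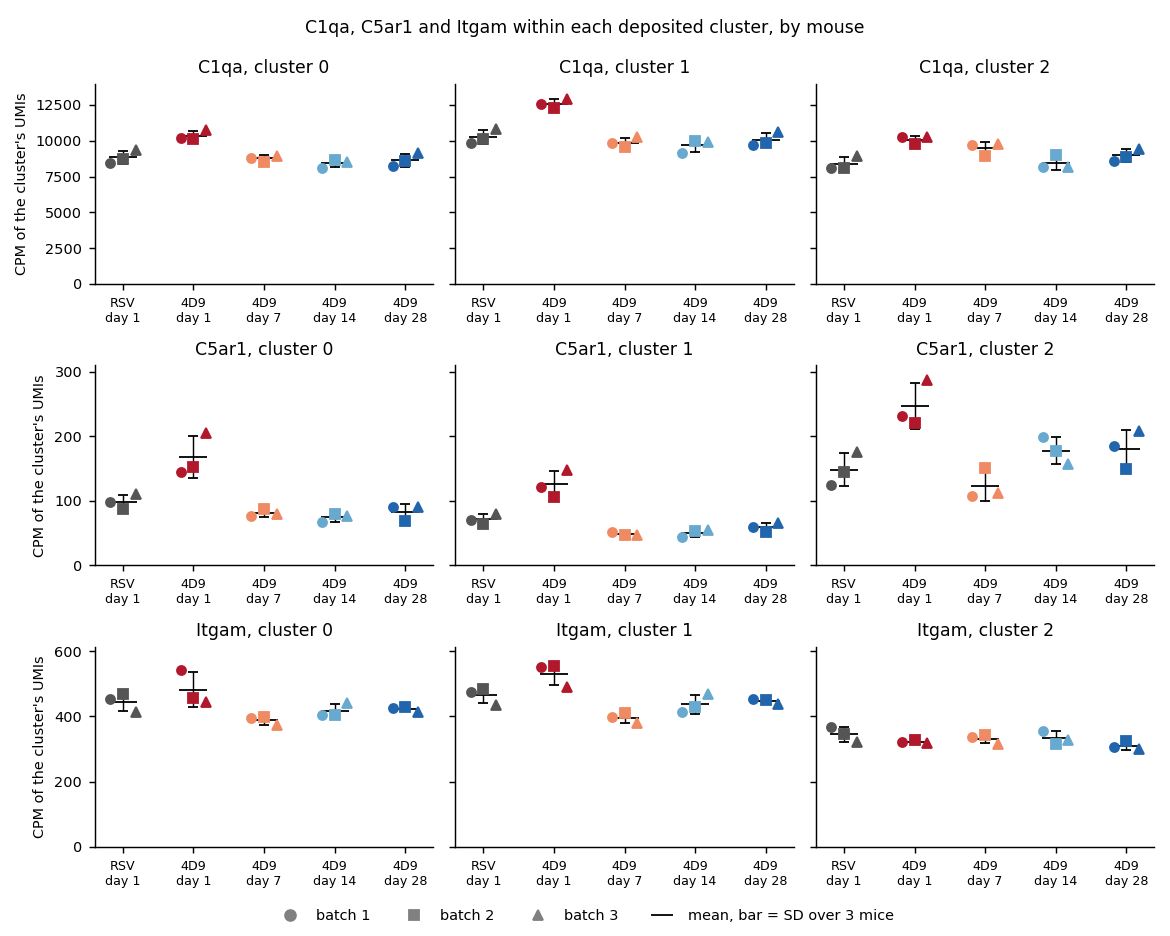
CPM of C1qa, C5ar1 and Itgam within deposited clusters 0, 1 and 2 in each mouse (CPM of the UMIs of that mouse's cells in the cluster, linear axes from 0 shared along a row), with the mean and SD of 3 mice. C5ar1 is highest at day 1 in every cluster, while Itgam in cluster 1 is highest at day 1 (532 CPM on average) and lower in cluster 2 than in clusters 0 and 1.

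C3 and C4b were also higher within clusters 0 and 1 at day 7. C3 was at 1.14 CPM in cluster 0 and 1.17 CPM in cluster 1, against 0.287 and 0.176 CPM in the controls, and C4b at 2.56 and 2.03 CPM against 0.955 and 0.656 CPM, in each case with 3 of 3 mice above every control mouse. In cluster 2 the means of the treated mice were below those of the controls on both days. The controls had only 25 UMIs of C3 there, 0 to 13.7 CPM per mouse with a mean of 6.50 CPM, against 1.39 CPM at day 1 and 4.24 CPM at day 7, with overlapping mice. C4b was at 11.2 ± 4.98 CPM in the controls in that cluster (SD, n = 3), where it rested on 39 UMIs. It was at 4.04 CPM at day 1 and 10.7 CPM at day 7, below every control mouse in 3 of 3 and 1 of 3 mice. C3ar1 in cluster 2 was at 262 CPM in the controls and 187 CPM at day 1, below in 3 of 3 mice. In cluster 1 it was at 163 and 184 CPM, above in 3 of 3 mice, and in cluster 0 at 191 and 199.9 CPM, above in 2 of 3. These cluster values are scaled by the UMIs alone, and on that scale the sum of C3ar1 over all cells was not called at day 1.

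The rest of the complement system was counted from lists of 59 genes, of which 31 passed the filter on low counts. At day 1, 22 of the 31 were called on the TMM scale, 13 higher and 9 lower, with a median log2 fold change of 0.25. The day 1 count of each list is read against the 69.2% of all genes that passed the test on that day, 34.7% in the upward and 34.6% in the downward direction. At day 7, 2 were called, both higher, where 2.99% of all genes were called higher, and at days 14 and 28 none was called in limma-voom, edgeR or DESeq2, with 1 of the 31 at an unadjusted p under 0.05 in each tool and on each day. The genes named are the 3 with the highest mean level in each list, and those called after day 1.

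Among the other components of the classical and lectin pathways, 5 of 14 genes were tested, of which 3 rose and 1 fell at day 1, 4 of 5 called where 69.2% of all genes were. Masp1, a protease of the lectin pathway, went from 1.68, 1.47 and 1.96 CPM in the controls to 16.3, 15.9 and 13.4 CPM at day 1 (log2 fold change 3.16, SE 0.158, adjusted p = 7.02e-11), and was at 1.53, 2.18 and 1.90 CPM at day 7. C2, the partner of C4 in the C3 convertase, rose by 1.49 (adjusted p = 1.24e-04) and the C1r protease gene C1ra by 0.98 (adjusted p = 9.89e-04). In the alternative pathway 2 of 3 genes were tested and both rose at day 1, Cfb by 2.32 and properdin (Cfp) by 0.60 (adjusted p = 0.0205).

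Cfb, which encodes factor B of the alternative C3 convertase, was called on the same days and between the same days as C3. It was at 0.388, 0.145 and 0.0716 CPM in the controls, 0.974, 0.768 and 0.920 CPM at day 1, 1.02, 0.653 and 0.892 CPM at day 7 and 0.182, 0.132 and 0.198 CPM at day 14. The mice of days 1 and 7 did not overlap the controls. The log2 fold change at day 7 was 2.27 (SE 0.393, adjusted p = 0.00249), and the difference of day 14 from day 7 was -2.25 (SE 0.389, adjusted p = 0.0112). These levels rest on few molecules, since the 3 control mice gave 19, 6 and 3 UMIs of Cfb, and without days 1 and 7 it reached the count limit of the filter in 3 of 9 libraries. C3, C4b and Cfb share the same control mice.

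**Figure D5:**
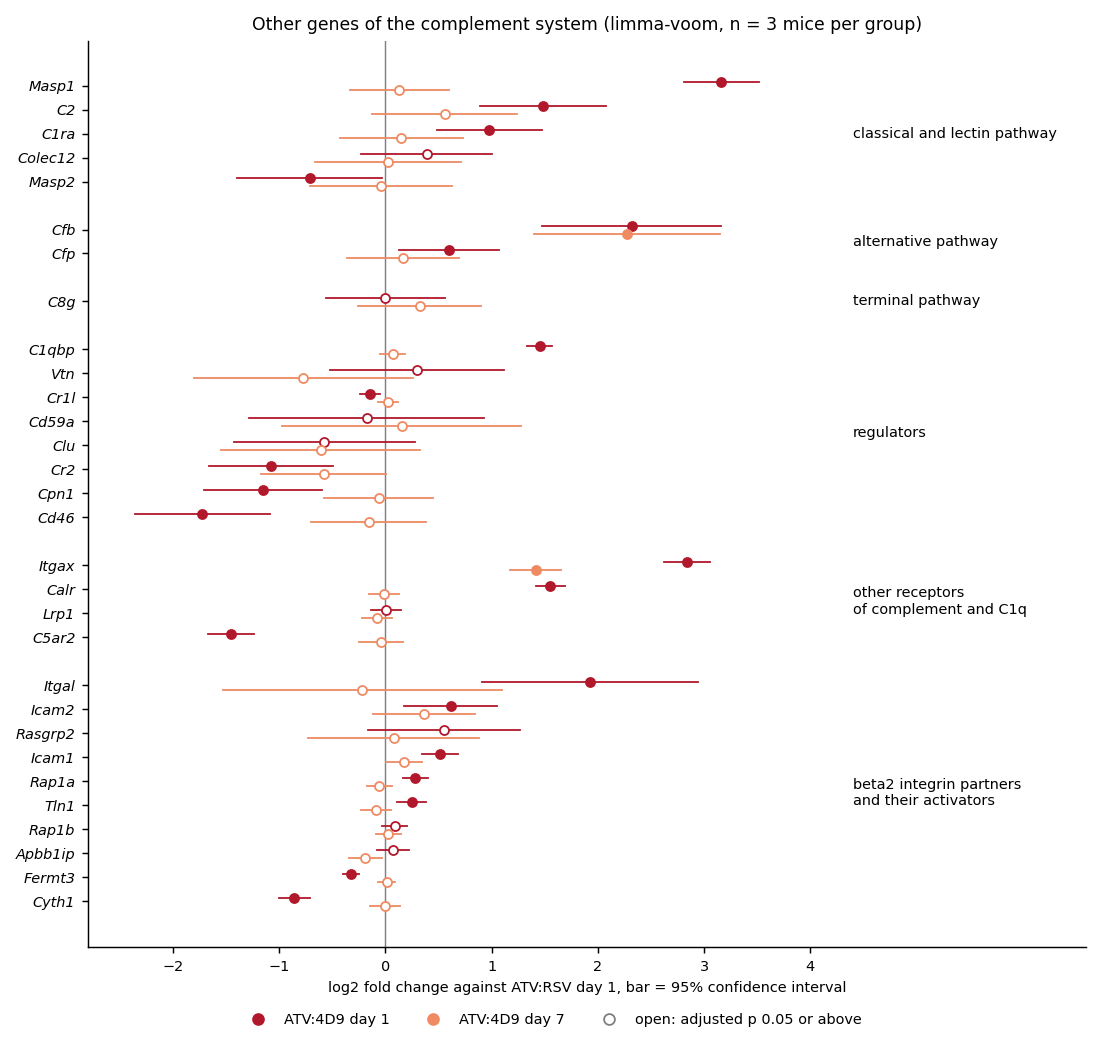
Log2 fold change (point) and 95% confidence interval (bar) of further complement genes tested, by list, for ATV:4D9 day 1 and day 7 against the same 3 ATV:RSV mice; filled points passed an adjusted p under 0.05. Masp1 and Itgax lie farthest to the right at day 1 (3.16 and 2.84), and Cfb and Itgax are the filled points of day 7.

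The terminal pathway was nearly unmeasured, with 1 of 7 genes tested: C8g was at 0.00 at day 1 (95% interval -0.56 to 0.56, adjusted p = 0.999). Of the regulators 9 of 17 were tested, of which 1 rose and 5 fell at day 1, beside 34.7% and 34.6% of all genes on the TMM scale (the lower share was 48.8% with scaling by the library size alone and 13.4% with scaling by the number of cells). Among them Cr1l (also known as Crry), a membrane inhibitor of the C3 convertases, was at -0.15 (adjusted p = 0.00525). C1qbp, a mostly mitochondrial protein named for its binding of C1q, was at 72.0, 74.0 and 80.0 CPM in the controls and 205, 210.3 and 203 CPM at day 1, without overlap, and rose by 1.45 (adjusted p = 1.71e-12).

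Among the other receptors 4 of 8 genes were tested, with 2 higher and 1 lower at day 1. C5ar2, the other receptor of C5a, moved against C5ar1: it was at 57.8, 57.3 and 57.9 CPM in the controls and 22.3, 17.1 and 25.01 CPM at day 1, and fell by 1.45 on the log2 scale (SE 0.0977, adjusted p = 2.19e-09). By day 7 it was at 54.8, 60.1 and 53.9 CPM, a difference of -0.04 (adjusted p = 0.886). Calreticulin (Calr), a chaperone that also binds C1q, rose by 1.55 (adjusted p = 5.25e-12), and Lrp1, an endocytic receptor, was at 0.01 (95% interval -0.14 to 0.15, adjusted p = 0.940).

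Itgax, the alpha chain CD11c of complement receptor CR4, which pairs with the same beta chain as Itgam, was called at days 1 and 7. It was at 3.25, 3.98 and 3.13 CPM in the controls, 25.6, 23.3 and 25.01 CPM at day 1, 8.46, 9.26 and 9.61 CPM at day 7 and 3.66, 3.94 and 3.48 CPM at day 14. The log2 fold change was 2.84 at day 1 (adjusted p = 1.00e-12) and 1.41 at day 7 (SE 0.107, adjusted p = 1.34e-06). Of the partners and activators of the beta2 integrins all 10 were tested, with 5 higher and 2 lower at day 1, beside 69.2% of all genes called, and none called later. One of the 5, Itgal (singled out after its values were seen), reached the count limit of the filter in 2 of the 12 libraries other than day 1, so it was tested only through the group where it was high. Without it 4 of 9 were higher, and 12 of 30 over all lists. The ligand Icam1 rose by 0.51 at day 1 (adjusted p = 1.65e-05), and the adaptor Apbb1ip and the small GTPase Rap1b were at 0.07 and 0.09 (adjusted p = 0.375 and 0.154).

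The genes whose levels over the 15 mice were most like each member are given as a description, since all points share the same libraries and the difference of day 1 from the other groups. Only tested genes with a mean of at least 10 CPM that were not predicted genes were ranked, so low genes such as C3 and C4b could not be named. For C3 these were B2m and Ifi27l2a (Pearson r = 0.920 and 0.912), and for C4b they were the same 2 genes (0.928 for B2m and 0.936 for Ifi27l2a). C5ar1 was most like Clec5a and Coprs (0.989 each), C1qa like Bsg and Fcer1g (0.984 and 0.982), C1qb like C1qa and Cd81 (0.974 and 0.970) and C1qc like H2-T23 and Lgmn (0.928 and 0.926). C3ar1 was most like Irf9 and Zdhhc12 (0.911 and 0.907), Itgam like Hivep1 and Cttnbp2nl (0.924 and 0.914) and Itgb2 like Sdha and mt-Cytb (0.907 and 0.905). C3 and C4b correlated with each other at 0.911 over the 15 mice and at 0.861 over the 12 mice other than day 1.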

How the data were processed

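Male hTfR KI mice were profiled with the 10x 3′ single-cell kit. The authors aligned the reads to mm10 with Cell Ranger (4.0.0 per the submitters' processing notes; the study's methods name later versions), filtered and clustered the cells and deposited raw UMI counts per gene and cell for 102043 cells, with the percent of mitochondrial UMIs and a cluster number for each cell. The authors' annotation release and cell filters are not given in the sources used here. Symbols were placed with GENCODE M21. A further control animal that the study describes was not analysed here, and 0 columns of per-sample values were set aside. The kit reads transcript ends. Levels of different genes were set side by side to order genes by level and to form the ratios of the C1q chains. Shares of cells were also read against transcripts of other cell types.

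Deposited counts were summed per mouse (32341960 to 70307384 UMIs; 5667 to 7596 cells). The main test was limma-voom (R 4.3.3, with limma 3.58.1 and edgeR 4.0.16) on all 15 mice with 5 group means, TMM scaling, filterByExpr (minimum count 10, minimum total 15) and Benjamini-Hochberg adjustment over 14260 genes, called at an adjusted p under 0.05. Intervals of 95% used the 10 residual degrees of freedom. CPM were scaled by the TMM factors, and log2 CPM had a prior count of 2. Per-cell shares were taken after thinning each cell to 3385 UMIs, the 10th percentile, which left out 10204 cells (3.93% to 17.8% per mouse). Intervals of counts cover counting error only. No doublet caller was run, and leaving out the cells in which 3 or more markers of another type were detected was an alternative. Scripts used Python 3.11.15, pandas 2.3.3, numpy 2.4.6, scipy 1.17.1 and matplotlib 3.10.9. The fits were run on simulated counts with 200 genes changed, at day 7 only. There limma-voom recovered 64.3% of the genes changed 1.5-fold and 83.8% of those changed 2-fold. False calls were 4.58% of its calls, 4.49% in edgeR and 8.33% in DESeq2. The simulation held no broad shift like that of day 1, so it cannot judge calls that depend on the scaling.

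The alternatives were other scalings (DESeq2-style size factors, library size, number of cells), edgeR, DESeq2 1.42.0, no filter, the 2 groups alone, 3 subsets of cells, batch as a block, and leaving out each mouse. Each batch held 1 mouse of every group per the labels, so the replicate numbers pair the mice. Deviations from the group mean had a mean correlation of 0.0539 between same-batch mice (30 pairs, range -0.225 to 0.259) and -0.0267 between mice of different batches (60 pairs). The complement genes and the further lists were chosen with earlier results of these data known. The genes named from the lists were the 3 with the highest mean CPM of each list and those called after day 1, except that 1 gene is not reported here by name. Mice are separate animals per the labels.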

Additional observations from a re-analysis of the deposited data

Results flagged for a closer look

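The effect of ATV:4D9 at 2 time points was set against the same ATV:RSV mice, and for 7 values a direct limma-voom contrast between neighboring days passed the test. Between days 1 and 7, 66.9% of all genes passed it, and between days 7 and 14, 0.912%. From day 1 to day 7 the log2 differences were -0.30 for C1qa (adjusted p = 7.50e-05), -0.20 for C1qb (0.00448), -0.73 for C4b (0.00828), -0.15 for C3ar1 (0.0158) and -1.86 for C5ar1 (1.58e-09), each lower at day 7 in 3 of 3 mice. From day 7 to day 14 they were -2.25 for C3 (adjusted p = 0.0177) and -2.09 for C4b (0.0112), again lower in 3 of 3 mice. With scaling by the library size alone the calls from day 1 to day 7 were lost for C1qb (-0.058, adjusted p = 0.331) and C3ar1 (-0.0059, adjusted p = 0.927). C3 was not called from day 1 to day 7 (-0.23, adjusted p = 0.472). The calls from day 7 to day 14 depend on single libraries. The days were sampled from different mice, and the cause of these differences was not tested.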

How the results depend on the processing

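Of 1404 log2 fold changes recomputed under the alternatives, 1327 kept their direction and their side of the threshold, 27 kept the direction but lost the call, 8 gained it and 42 turned in sign. Of the 26 alternatives of each value, 15 leave out 1 mouse. Most of those leave out a mouse outside the 2 groups compared, so little could change. A value that stayed uncalled with the same sign also counts as kept. With batch as a replicate block, all 54 kept direction and side (at day 7 C3 was at 1.85, adjusted p = 0.00880, and C4b at 1.40, adjusted p = 0.00741), and the F test called 9 members rather than 7. Over its 25 alternatives the F test called 5 to 9 members, and 6 to 8 with 1 mouse left out. The 9 members called at day 1 ranged from 7 to 9 with 1 mouse left out. The 2 called at day 7 became 0 with only the 2 groups compared in the fit and 0 to 2 with 1 mouse left out. The 5 called between days 1 and 7 became 8 with scaling by the number of cells. The 2 called between days 7 and 14 became 1 with that scaling and 0 to 2 with 1 mouse left out. Fewer mice enter the fits of 2 groups and those with a mouse left out. The cause of the other changes was not tested.

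Most values that turned were small, but some were called in the other direction. C1qc and Itgb2 at day 1 were called lower with scaling by the library size alone. From day 1 to day 7, Itgam was called lower with scaling by the number of cells and higher (0.23) with scaling by the library size alone. The values that turned with scaling by the library size alone were C1qc -0.10 and Itgb2 -0.11 at day 1, C1qa -0.021, C1qc -0.029 and Itgb2 -0.027 at day 7, Itgb2 -0.039 at day 14, C1qc -0.0094 at day 28, and C1qc 0.072 and Itgb2 0.080 from day 1 to day 7. With scaling by the number of cells they were Itgam 0.17 at day 1, C1qa -0.031, C1qb -0.0049, C1qc -0.038 and Itgb2 -0.036 at day 7, C1qa 0.062, C1qb 0.052, C3ar1 0.065 and Itgam 0.022 at day 28, Itgam -0.38 from day 1 to day 7, and C1qa 0.0080, C1qc 0.031 and Itgb2 0.054 from day 7 to day 14. C3 at day 14 was at 0.098 without the 5% of cells with most UMIs. With 1 mouse left out, the day 14 values ran from -0.055 to 0.017 for C1qa, -0.091 to 0.016 for C1qb, -0.041 to 0.026 for C1qc, -0.86 to 0.40 for C3 and -0.029 to 0.044 for Itgb2, and the day 28 values from -0.055 to 0.035 for C1qa, -0.063 to 0.044 for C1qb, -0.019 to 0.048 for C1qc, -0.93 to 0.33 for C3, -1.01 to 0.061 for C4b and -0.054 to 0.043 for C3ar1. C3 and C4b rest on 6 to 111 and 18 to 285 UMIs per mouse.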
